A study of Mus musculus with 2 samples.

Results

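The genes described here are 39 genes of protein folding in the endoplasmic reticulum (ER) and of the unfolded protein response. They were chosen by name from the 27179 features of the count tables, with no measured value in the rule. Earlier results of these data were known when the genes were chosen. They fall into 16 chaperones and folding enzymes, 11 genes of the translocon, translocon-associated protein and signal peptidase, 7 genes of ER-associated degradation, and 5 sensors and transcription factors. They were measured by single-cell RNA sequencing of mammary cells from adult mice at 18.5 days of pregnancy. The Ehf knockout library (strain label EhfKO) and the wild type library (strain label WT) each came from the pooled thoracic and inguinal glands of 2 females, sorted as live cells negative for Ter119, CD31 and CD45. Ehf belongs to the ETS transcription factors and is expressed in epithelia, and the labels do not say how its allele was made. With 1 library per genotype, no difference has a replicate check and no test was run. All intervals are 95% intervals that cover counting error only.

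Secretory cells thread new proteins into the ER through the Sec61 channel, where the signal peptidase removes the leading peptide and chaperones such as Hspa5 (BiP) fold the chain. When unfolded protein accumulates, the sensors Ern1 (IRE1), Atf6 and Eif2ak3 (PERK) signal to the nucleus: Ern1 splices the Xbp1 transcript into its active form, Atf6 is cleaved into a factor that switches on chaperone genes, and Eif2ak3 slows translation and leads to Ddit3 (CHOP). Mammary alveolar cells expand this machinery as they begin to secrete caseins. The tags counted here lie at the 3' ends of transcripts, so they tell neither Xbp1 splicing nor the cleavage or phosphorylation of the sensors.

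Promoters are shown for a few members because the groups differ in how many hold the ER stress response element, a known binding motif of Atf6 and Xbp1. The windows run from 250 bases before to 50 bases after the start of the RefSeq gene on GRCm38.p6, and 31 of the 39 members had one. The element, CCAAT followed after 9 free bases by CCACG, was found on either strand in 7 of 14 matched chaperone genes (Hspa5, Hsp90b1, Calr, Canx, Pdia6, Dnajc3 and Creld2), in 2 of 6 matched degradation genes (Derl3 and Syvn1), and in 0 of 7 matched translocon and signal peptidase genes and 0 of 4 matched sensors. It was present in 39 of 32851 promoter windows of the whole table, or 0.119%. A shorter relative, ATTGG followed after 1 free base by CCACG, was found in Herpud1 and Dnajb11, against 0.0365% of all windows. The core of the unfolded protein response element, TGACGTGG, was in 0 of the 31 matched members and in 0.676% of all windows. CCACG, which is part of the first 2 motifs, was in 24 of the 31 members and in 32.8% of all windows. Below are the chaperone Hspa5, the folding factor Creld2 and the degradation gene Derl3, which carry the ER stress response element (the long motif). They are followed by Herpud1, a degradation gene with the shorter relative, and the translocon gene Sec61b, which carries none of the 4. Each is 5′ to 3′ along the gene, with the fixed letters of a motif in capitals.
Hspa5, chr2:34771840-34772139, plus strand: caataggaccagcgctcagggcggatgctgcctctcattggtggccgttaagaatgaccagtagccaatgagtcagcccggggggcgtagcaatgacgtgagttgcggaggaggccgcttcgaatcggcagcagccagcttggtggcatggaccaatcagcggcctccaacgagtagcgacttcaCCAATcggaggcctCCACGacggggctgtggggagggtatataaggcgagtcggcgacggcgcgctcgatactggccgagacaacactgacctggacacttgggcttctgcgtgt
Creld2, chr15:88819396-88819695, plus strand: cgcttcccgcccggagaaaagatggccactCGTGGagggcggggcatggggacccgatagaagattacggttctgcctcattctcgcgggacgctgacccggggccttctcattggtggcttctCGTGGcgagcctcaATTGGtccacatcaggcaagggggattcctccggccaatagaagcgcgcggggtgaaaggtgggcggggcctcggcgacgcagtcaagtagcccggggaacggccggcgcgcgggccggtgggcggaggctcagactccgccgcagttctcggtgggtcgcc
Derl3, chr10:75893148-75893447, plus strand: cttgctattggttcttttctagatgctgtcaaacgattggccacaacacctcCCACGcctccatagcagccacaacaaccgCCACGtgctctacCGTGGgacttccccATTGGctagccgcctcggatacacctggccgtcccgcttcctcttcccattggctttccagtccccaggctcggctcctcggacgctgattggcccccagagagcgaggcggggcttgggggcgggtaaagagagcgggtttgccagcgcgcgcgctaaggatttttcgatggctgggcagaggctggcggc
Herpud1, chr8:94386179-94386478, plus strand: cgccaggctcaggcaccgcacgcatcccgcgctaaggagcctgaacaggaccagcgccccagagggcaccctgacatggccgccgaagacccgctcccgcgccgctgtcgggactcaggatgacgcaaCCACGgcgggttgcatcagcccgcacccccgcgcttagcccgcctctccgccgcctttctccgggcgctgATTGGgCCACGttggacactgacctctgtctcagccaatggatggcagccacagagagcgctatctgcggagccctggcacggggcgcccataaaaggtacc
Sec61b, chr4:47474411-47474710, plus strand: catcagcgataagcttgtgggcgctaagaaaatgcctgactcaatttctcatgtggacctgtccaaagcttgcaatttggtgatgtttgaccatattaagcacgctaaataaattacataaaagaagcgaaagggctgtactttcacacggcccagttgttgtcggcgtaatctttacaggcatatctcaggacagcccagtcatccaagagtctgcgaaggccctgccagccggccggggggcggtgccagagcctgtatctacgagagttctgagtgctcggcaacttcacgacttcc

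In Hspa5 the long motif spanned positions -65 to -47 from the start, and in Derl3 and Creld2 it lay on the opposite strand at -156 to -138 and -126 to -108. Herpud1 held the shorter motif at -52 to -42. A match describes letters in this window, and a missing match says only that these letters are not in it.

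The Ehf knockout library held 7275 barcodes and 40066795 unique molecular identifiers (UMIs), and the wild type library 11258 barcodes and 48720938 UMIs. After filtering, 6561 knockout and 9089 wild type cells remained, with median depths of 3900 and 2481 UMIs. The libraries shared 25 barcodes. Clusters were built without the 39 members and without milk genes, and were named from fixed markers. Luminal secretory cells, which join alveolar-like and luminal progenitor-like clusters, numbered 822 in knockout and 2560 in wild type. The mix of clusters differed: the alveolar-like cluster held 77 knockout and 1927 wild type cells, and the 2 luminal progenitor-like clusters held 460 and 285 knockout cells against 259 and 374 wild type cells. Ratios over the whole class set these different mixes side by side. Hormone-sensing-like cells numbered 152 and 126, basal-like cells 5526 and 6225, and non-epithelial cells 61 and 178. Immunoglobulin genes led 1 basal-like cluster of 1346 knockout and 374 wild type cells, and histone and mitotic genes led the luminal progenitor-like cluster of 285 and 374 cells. Igkc, the first gene of the immunoglobulin-led cluster, had 24 UMIs in knockout and 1121 in wild type basal cells. Ehf itself had 1077 UMIs in knockout and 3346 in wild type luminal secretory cells, so its 3' tags were lower but not absent, and tags outside a deleted part would not report the deletion.

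Milk protein genes took 10.3% of UMIs in knockout and 38.9% in wild type luminal secretory cells. Levels are therefore given as CPM over the UMIs outside 12 milk protein genes, where CPM means counts per 1000000 counts. Log2 ratios, knockout over wild type, are further set relative to the median of all genes measured in the same cells, and this median stood at 0.31 in luminal secretory cells before it was set to 0. A gene counts as measured with at least 50 UMIs over both libraries, and as higher or lower at a 1.5-fold difference, which is a rule of size and not a test.

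Among the epithelial classes, luminal secretory cells carried the highest levels of most members in both libraries. Of the 39 members, 34 were higher there than in hormone-sensing or basal cells of the knockout library, and 32 in the wild type library. The same count over all genes was not made, so these counts do not set the members apart from other genes. Non-epithelial cells were left out of the ranking, and some members, such as Herpud1 in wild type, were higher in them than in luminal secretory cells. Members not highest in luminal secretory cells included Dnajb9, a co-chaperone of Hspa5, which was highest in basal cells of both libraries. Ern1 was highest in hormone-sensing cells of both, but from 15 knockout and 8 wild type UMIs there, too few to count as measured. The summed level of the 16 chaperones in luminal secretory cells was 9041 (8987 to 9095) in the knockout library and 5420.3 (5386 to 5455) in wild type. In basal cells it was 3319.8 in knockout and 3036 in wild type. The translocon and signal peptidase genes went the other way in luminal secretory cells, at 3495 (3461 to 3528) in knockout and 5248 (5214 to 5282) in wild type. In basal cells they stood at 1234 and 1237. Luminal secretory cells exceeded basal cells by a median of 3.03-fold in knockout and 2.09-fold in wild type for chaperones. For the translocon group this was 2.99-fold in knockout and 4.65-fold in wild type.

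**Figure D1:**
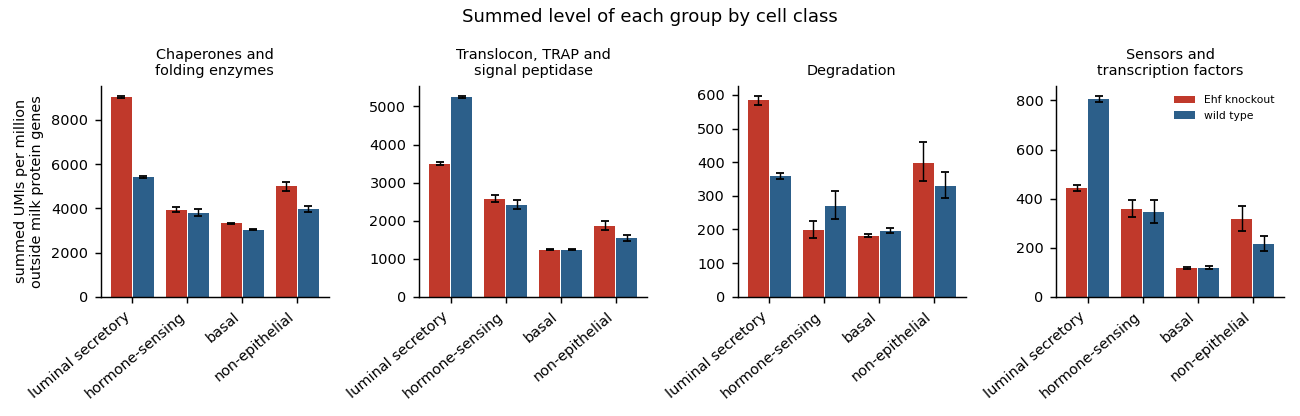
Summed level of each group of members (CPM outside milk protein genes) in 4 cell classes, knockout bars left of wild type bars, with 95% Poisson intervals. In luminal secretory cells chaperones stand at 9041 in knockout and 5420.3 in wild type, and translocon, TRAP (translocon-associated protein) and signal peptidase genes at 3495 and 5248, while both libraries are close in basal cells.

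In luminal secretory cells 6 of the 16 chaperones were higher in the knockout library, 2 were lower, and the median log2 ratio was 0.40. Over all 11379 genes measured in this class, 15.5% were higher and 18.2% lower. Creld2, an ER-resident protein induced by ER stress, had 2385 UMIs in knockout and 891 in wild type cells, levels of 199 and 49.9 and a log2 ratio of 1.69 (1.58 to 1.80). Sdf2l1, a partner of ER chaperone complexes, had levels of 224 and 71.0 and a ratio of 1.35 (1.26 to 1.45). Both were the highest ratios of the group. The 2 abundant chaperones followed: Hsp90b1 (GRP94) at levels of 1856 and 769 had a ratio of 0.97, and Hspa5 at levels of 2228 and 1040.3 had a ratio of 0.79 (0.77 to 0.82). Manf, a secreted factor induced by ER stress, had a ratio of 0.63, and the disulfide isomerase Pdia3 one of 0.59.

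The other chaperones were lower or within 1.5-fold. The disulfide isomerase P4hb was lower in the knockout, with levels of 409 and 532 and a ratio of -0.69, as was Dnajb9, with levels of 93.3 and 124 and a ratio of -0.71. Neither was lower by 1.5-fold under scaling outside milk protein genes without centring, and with plain scaling their ratios were 0.17 and 0.14. The lectin chaperones Calr and Canx had ratios of 0.01 and -0.12, and the cyclophilin Ppib one of -0.21. Pdia4, Pdia6 and Hyou1, a nucleotide exchange factor for Hspa5, had ratios of 0.39, 0.41 and 0.55, and the co-chaperones Dnajb11 and Dnajc3 had 0.04 and -0.08.

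All 11 genes of the translocon, translocon-associated protein and signal peptidase were lower in knockout luminal secretory cells, against 18.2% of all genes. Their ratios lay between -1.14 and -0.68, with a median of -0.92. The channel subunits Sec61a1, Sec61b and Sec61g had ratios of -0.99, -0.83 and -1.01. Ssr1 to Ssr4, the translocon-associated protein complex, had -1.08, -0.97, -1.14 and -0.92. The signal peptidase subunits Spcs1, Spcs2, Spcs3 and Sec11c had -0.68, -0.70, -0.91 and -0.86. This direction depends on both the denominator and the centring. Scaling to UMIs outside milk protein genes, without centring, put the median at -0.62. There 7 of the 11 genes passed 1.5-fold downward, against 10.7% of all genes. With plain scaling to all UMIs of the class 0 were lower or higher, the median was -0.06 and Sec61b, Spcs1, Spcs2 and Sec11c were above 0. Under plain scaling 67.7% of all genes were higher and 4.57% lower in the knockout library, and 14 of the 16 chaperones were higher, with a median of 1.26.

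Degradation genes were mixed, with 2 of 7 higher and 1 lower, against 15.5% and 18.2% of all genes. Derl3, a derlin of the channel that returns misfolded proteins to the cytosol and a gene of strongly secretory cells, had 1600 UMIs in knockout and 345 in wild type cells, levels of 134 and 19.3 and a ratio of 2.48 (2.31 to 2.66), the highest of the 39. Its relatives Derl1 and Derl2 had ratios of -0.63 and -0.42. Herpud1, a scaffold of the degradation complex, had levels of 156 and 65.8 and a ratio of 0.94. Sel1l and Syvn1, the core of the HRD1 ubiquitin ligase, had 0.56 and 0.01, and the mannosidase-like Edem1 had -0.32. Plasma cells also express Derl3, and the 7 plasma cell markers summed to 7 UMIs in knockout and 12 in wild type luminal secretory cells.

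Among the 5 sensors and transcription factors, Xbp1 was lower, with 4198 UMIs in knockout and 13055 in wild type cells, levels of 351 and 732 and a ratio of -1.37 (-1.42 to -1.32). Atf6 was lower too, at -0.76. Ddit3 was higher at 0.68, with levels of 54.0 and 27.2. Eif2ak3 had -0.47 (-0.80 to -0.14), and Ern1 had 27 UMIs in knockout and 30 in wild type cells, too few to place its ratio of 0.12 (-0.69 to 0.92).

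**Figure D2:**
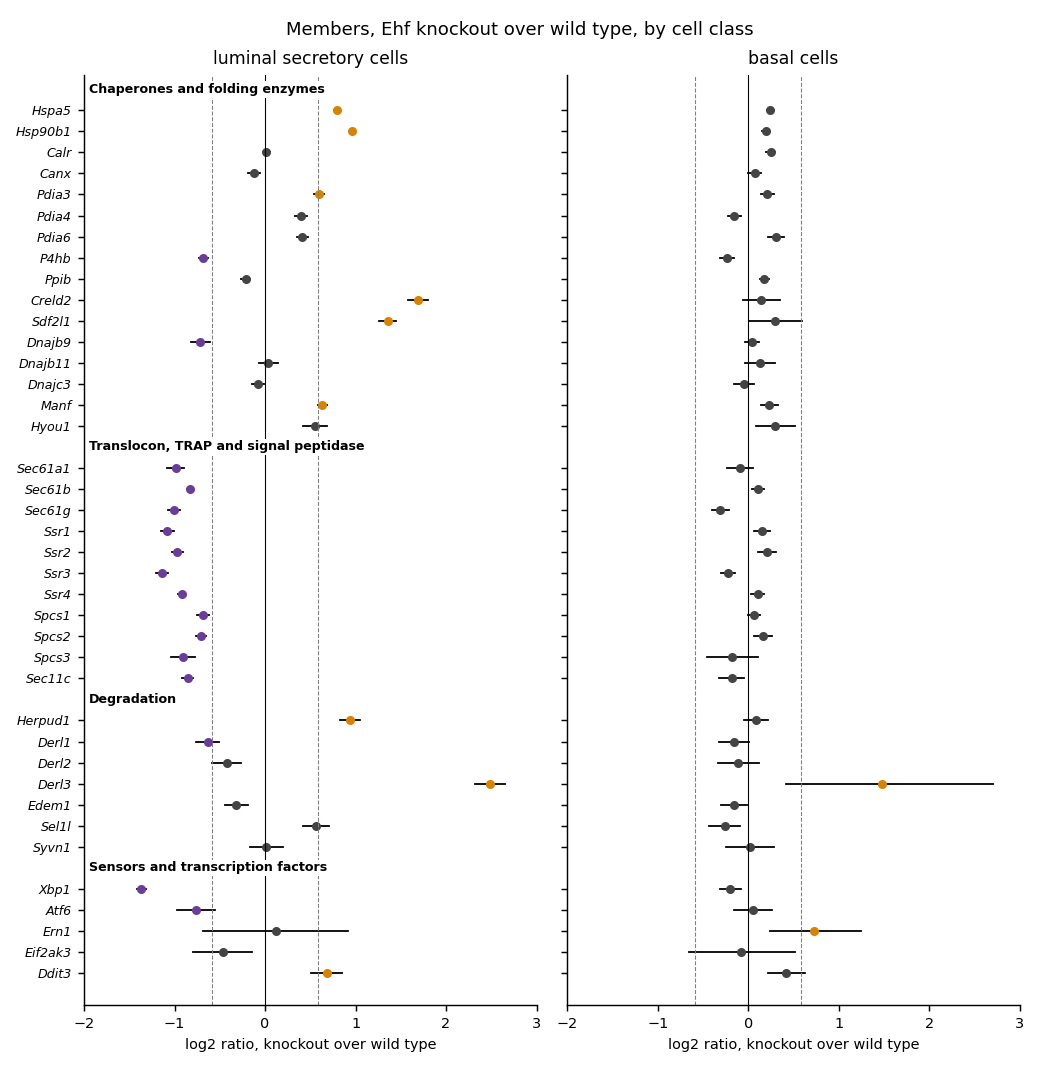
Log2 ratio of each member, knockout over wild type, in luminal secretory (left) and basal cells (right), with 95% counting intervals. Orange points are at least 1.5-fold higher and purple points at least 1.5-fold lower, dashed lines mark 1.5-fold, and the 11 translocon, TRAP and signal peptidase genes lie between -1.14 and -0.68 in luminal secretory cells.

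Few members passed 1.5-fold outside the luminal secretory class. In basal cells 2 of 39 members were higher and 0 lower, against 6.23% and 6.67% of 12535 genes, and the median ratio was 0.08. The 2 were Derl3, with 41 UMIs in knockout and 9 in wild type cells and a ratio of 1.48 (0.42 to 2.71), and Ern1, with 130 and 48 UMIs and a ratio of 0.73 (0.24 to 1.24). In hormone-sensing cells 32 members were measured, 2 were higher (Sdf2l1 at 1.03 and Manf at 0.68) and 1 was lower (Herpud1 at -0.97), against 9.1% and 8.48% of 4482 genes. In non-epithelial cells 31 members were measured, 3 were higher (Creld2, Manf and Xbp1) and 1 was lower (Dnajb11), against 6.97% and 9.68% of 4102 genes. These last classes held few cells. Differences between classes were not tested.

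The share of cells with at least 1 UMI was compared after each cell was thinned to 2000 UMIs, which left out 27 knockout and 104 wild type luminal secretory cells. Derl3 was detected in 18.6% (16.0 to 21.5) of knockout and 2.32% (1.76 to 3.00) of wild type luminal secretory cells. In basal cells it was detected in 0.281% and 0.122%. Thinning left out 196 knockout and 2946 wild type basal cells, so the thinned basal shares cover only cells with at least 2000 UMIs. The part of free RNA in these shares was not tested. Before thinning, the Derl3 shares were 43.1% and 10.5% in luminal secretory cells, at median depths of 10561.5 and 9005 UMIs, and 0.742% and 0.129% in basal cells, at 3682.5 and 2042 UMIs. Sdf2l1 was detected in 27.4% of knockout and 7.98% of wild type thinned luminal secretory cells, and Creld2 in 22.8% and 5.82%. In basal cells these shares were 2.35% and 2.10% for Sdf2l1 and 4.50% and 4.27% for Creld2. Ddit3 reached 9.06% and 3.46% in luminal secretory cells, against 5.05% and 3.69% in basal cells.

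Because the libraries differ so widely in casein, luminal secretory cells were placed in 6 ranges of the casein share of their UMIs, with edges at 2, 5, 10, 20 and 30%. From low to high, the knockout library had 313, 147, 162, 141, 47 and 12 cells, and the wild type library 67, 48, 86, 369, 1298 and 692. The highest range gave no knockout value, since a range needed at least 20 cells. These are ranges of a readout and not cell types, and cells of matched casein share differed in other ways. At 5 to 10% casein, median depth was 11515 UMIs in knockout and 4176.5 in wild type cells, and 51.9% and 26.7% of cells were cycling. Cycling was called from raw counts, at 3 or more UMIs over 8 mitotic genes. Deeper cells pass such a rule more easily, so these differences in depth and cycling are not separate. The alveolar-like cluster gave 6.17% of knockout and 18.6% of wild type cells at 5 to 10% casein, 9.93% and 62.3% at 10 to 20%, and 53.2% and 82.8% at 20 to 30%. The luminal progenitor-like cluster not led by mitotic genes gave 51.2% and 58.1% at 5 to 10%, and 52.5% and 22.5% at 10 to 20%. The part of depth, cycling and cluster mix in the results by range was not tested beyond the values given here.

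The chaperones followed a different course along the casein share in each library. In knockout cells their summed level was 4895 below 2% casein, 10018 at 2 to 5%, 11914 at 5 to 10%, 10878 at 10 to 20% and 5883 at 20 to 30%. In wild type cells it was 3243, 3837, 3888, 4671, 5462 and, above 30%, 5941. Knockout cells thus had a peak at intermediate casein, and wild type cells a shallow climb. The wild type climb depends on leaving milk proteins out of the denominator: with plain CPM the chaperone median over the lowest range was 0.23, 0.11, 0.19, 0.18 and -0.06 on the log2 scale. In the knockout library 12 of 16 chaperones had their highest level at 5 to 10% casein, 3 at 10 to 20% and 1 at 2 to 5%. In the wild type library 13 of 16 had it above 30%. Peak ranges were not counted over all genes, so these counts do not set the chaperones apart from other genes. The place of the knockout peak moved with the cells used. Without cycling cells the knockout chaperone median over the lowest range was 1.66, 1.54 and 1.07 at 2 to 5%, 5 to 10% and 10 to 20% casein. After thinning it was 1.16, 1.15 and 1.04, while with plain CPM it was 0.98, 1.18 and 0.97.

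**Figure D3:**
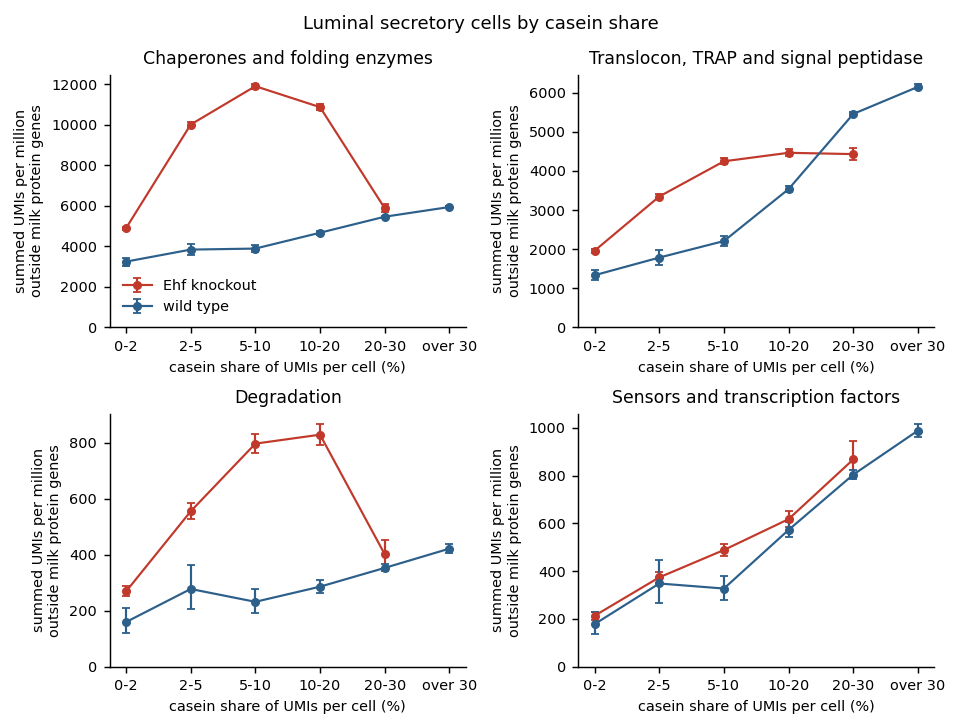
Summed level of each group (CPM outside milk protein genes, with 95% Poisson intervals) in luminal secretory cells by casein share, knockout in red and wild type in blue. Knockout chaperones reach 11914 at 5 to 10% casein and return to 5883 at 20 to 30%, where wild type cells stand at 5462, and the last group is mostly Xbp1, which reaches 787 in knockout and 911 in wild type cells in their highest ranges shown.

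Within the 5 to 10% range 33 of 37 measured members were higher in the knockout library and 0 lower, against 14% and 13.3% of 6436 genes. The median ratio was 1.62 for chaperones (15 of 16 higher), 1.00 for degradation genes (7 of 7 higher) and 0.82 for the translocon group (10 of 11 higher). Hspa5 had a level of 2937 in knockout and 724 in wild type cells, a ratio of 1.96 (1.81 to 2.12). Creld2 had levels of 299 and 56.8 and a ratio of 2.34 (1.79 to 2.93), and Sdf2l1 had 328 and 40.6 and a ratio of 2.95 (2.32 to 3.67). Members that were lower over the whole class were higher here: P4hb had a ratio of 1.05 and Dnajb9 one of 0.66. Calr, at 0.01 over the class, had a ratio of 0.85.

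At 10 to 20% casein 21 of 38 measured members were higher and 0 lower, against 9.75% and 11.2% of 7117 genes. Chaperones (median 1.08, 13 of 16 higher) and degradation genes (median 0.83, 6 of 7 higher) were higher there as well, and the translocon group had a median of 0.16 with 1 of 11 higher. At 20 to 30% casein 3 members were higher and 6 lower of 38, against 12.8% and 15.9% of 8573 genes. The chaperone median there was -0.07, and 5 of 11 translocon genes were lower, with a median of -0.55. Below 5% casein the wild type sums are small. There 13 of 37 members were higher and 2 lower below 2% casein, against 18.6% and 17.3% of genes, and 22 of 37 were higher and 1 lower at 2 to 5%, against 21.8% and 19%.

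Depth and cycling moved with these ranges. Leaving out cycling cells also lowered median depth at 5 to 10% casein, to 8013 UMIs in knockout and 3335 in wild type cells. At 5 to 10% casein the chaperone median was 1.66 without cycling cells and, with every cell thinned to 2000 UMIs, 1.65 (11 of 14 measured higher) in the ranges set at full depth and 1.89 in ranges set again after thinning. It was 1.86 among cells of 3000 to 12000 UMIs and 1.80 among non-cycling cells of that depth. With equal weight for each cell it was 1.35. In every casein range below 30% the median mitochondrial share lay between 5.82% and 6.10% in knockout and between 5.19% and 7.02% in wild type cells.

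**Figure D4:**
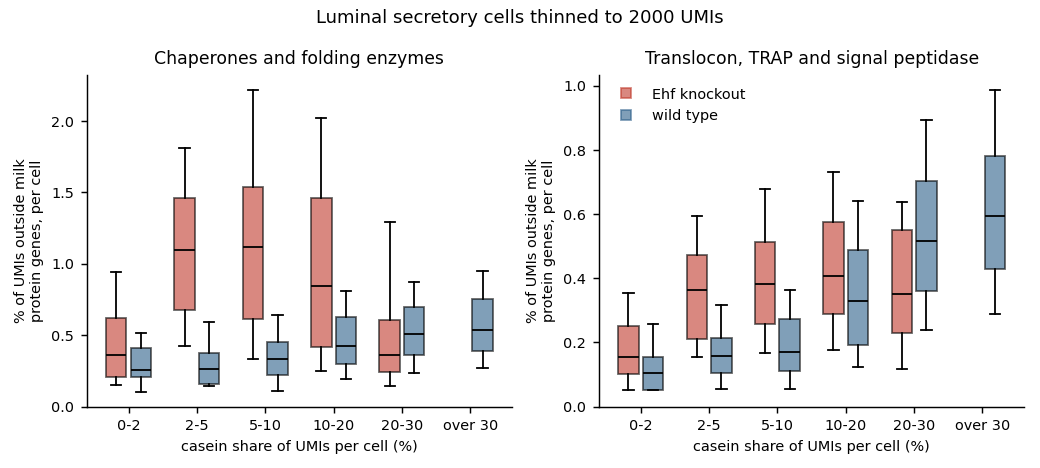
Share of each cell's UMIs outside milk protein genes that came from the 16 chaperones (left) or the 11 translocon, TRAP and signal peptidase genes (right), after thinning to 2000 UMIs, by casein share, with knockout boxes left of wild type boxes. Boxes span the quartiles with the median as a line, whiskers the 10th to 90th percentile, and the chaperone median at 5 to 10% casein is 1.12% in knockout and 0.331% in wild type cells.

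At 5 to 10% casein the difference was carried by most cells and not by a few. In cells thinned to 2000 UMIs, chaperones made up a median of 1.12% of UMIs outside milk protein genes in knockout cells at 5 to 10% casein, with quartiles of 0.617% and 1.54%. In wild type cells the median was 0.331%, with quartiles of 0.220% and 0.451%. The lower quartile of knockout cells was thus above the upper quartile of wild type cells. At 10 to 20% casein the quartiles overlapped. They were 0.416% and 1.46% around a median of 0.847% in knockout cells, and 0.301% and 0.630% around 0.422% in wild type cells. At 20 to 30% casein the medians were 0.360% in knockout and 0.509% in wild type cells. For the translocon group at 5 to 10% casein they were 0.382% and 0.170%.

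The translocon group climbed with casein in wild type cells, while its sum levelled off in knockout cells. Its summed level in knockout cells was 1958, 3345, 4247, 4464 and 4430.2 from below 2% to 20 to 30% casein. In wild type cells it was 1331, 1783, 2206, 3535, 5458 and 6151, and all 11 genes had their highest wild type level above 30% casein. The share of all genes with their highest level in that range was not counted. Between the highest and lowest wild type range all 11 genes were at least 1.5-fold higher, with a median log2 of 1.94, against 27.7% of 7432 genes. Between 20 to 30% and below 2% casein in the knockout library 9 of 11 were, with a median of 0.80, against 12.4% of 6925 genes. Sec61b reached 1208 at 20 to 30% casein in knockout cells and 1342 in wild type cells. Sec11c, the catalytic subunit of the signal peptidase, reached 357 and 445, and Ssr3 reached 198 and 357.

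**Figure D5:**
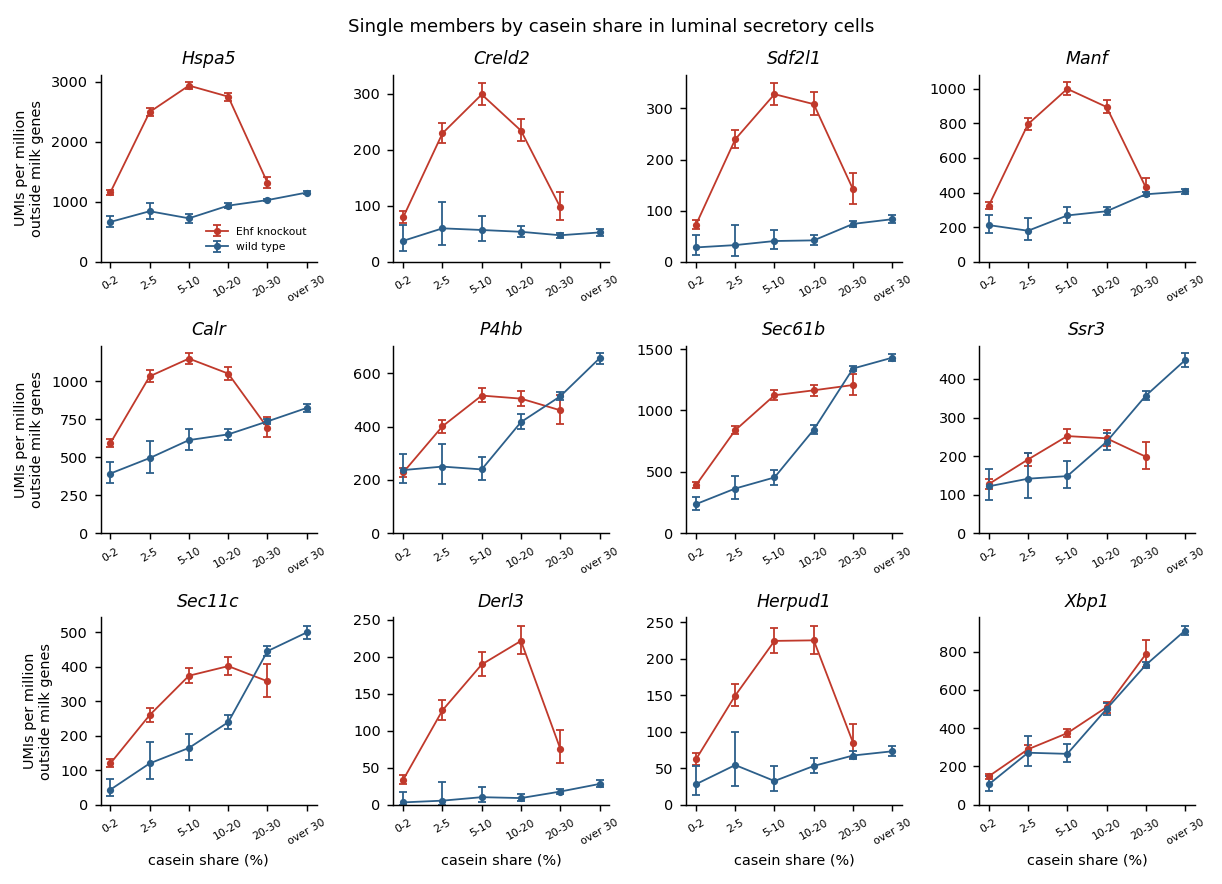
Level of 12 members (CPM outside milk protein genes, with 95% Poisson intervals) in luminal secretory cells by casein share, knockout in red and wild type in blue. Hspa5, Creld2, Sdf2l1, Manf, Derl3 and Herpud1 peak at intermediate casein in knockout cells, and the Xbp1 lines run close together.

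The degradation genes also peaked at intermediate casein in knockout cells. Their summed level in knockout cells was 268, 555, 797, 829 and 401 over the first 5 ranges, and in wild type cells 159, 277, 231, 285, 353 and 421. Derl3 had a level of 189 in knockout and 10.1 in wild type cells at 5 to 10% casein, from 548 and 5 UMIs, a ratio of 4.16 (2.93 to 5.79). At 10 to 20% it had 221 and 8.93, from 533 and 19 UMIs, a ratio of 4.59 (3.93 to 5.33). At 20 to 30% its ratio was 2.04 (1.55 to 2.52). Herpud1 had ratios of 1.02, 1.29, 2.73, 2.04 and 0.29 (-0.14 to 0.69) over the 5 ranges from low to high casein.

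Xbp1 was higher at high than at low casein share in both libraries. Its level in knockout cells was 148, 290, 374, 510 and 787 from below 2% to 20 to 30% casein, and in wild type cells 106, 272, 266, 500.3, 731 and 911. Within ranges its ratio was 0.36, -0.08, 0.43 (0.17 to 0.71), -0.01 (-0.13 to 0.11) and 0.06 (-0.08 to 0.19), against -1.37 over the whole class. No range passed 1.5-fold in either direction at the main settings. At 5 to 10% casein the Xbp1 ratio passed 1.5-fold without cycling cells (0.61) and at a mitochondrial maximum of 10% (0.61). It also did so among cells of 3000 to 12000 UMIs (0.68) and non-cycling cells of that depth (0.72). In the other settings tried it lay between 0.30 and 0.50. The knockout class held more of its cells in the low ranges, and the part of this in the class ratio was not tested. Ddit3 had a ratio of 1.67 (0.81 to 2.70) at 5 to 10% casein, from 215 and 11 UMIs, and 0.89 at 10 to 20%. Atf6 had ratios of -0.81 (-1.75 to 0.25), -0.73, -0.20, -0.00 and -0.52 (-1.38 to 0.22) over the 5 ranges, from 11, 6, 15, 55 and 296 wild type UMIs.

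Other genes of the same pathways, taken as whole lists, were set beside the 15.5% of all genes that were higher and 18.2% that were lower in luminal secretory cells. As for the translocon group, their direction depends on the denominator and the centring. Under plain scaling every ratio in this class stands 0.86 higher, and under scaling outside milk protein genes without centring 0.31 higher. The first shift exceeds the size of every negative list median in this class. Of 18 genes of COPII vesicles and cargo receptors, which carry proteins out of the ER, 13 were lower and 0 higher (median -0.73). They included the coat subunits Sec23b at -1.76, Sec24d at -1.59 and Sec13 at -1.29, and the cargo receptor Surf4 at -1.42. Of 11 oligosaccharyltransferase genes, which attach glycans in the ER, 6 were lower and 0 higher (median -0.61), with a catalytic subunit, Stt3a, at -1.24. Of 13 measured genes of the signal recognition particle and other translocon parts, 7 were lower and 0 higher (median -0.60), with the receptor subunit Srprb at -1.26. Other folding genes had 7 of 20 lower and 1 higher, from Fkbp11 at -1.89 to Rcn1 at 1.81.

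Of 16 other degradation genes 6 were lower and 0 higher, with Edem3 at -1.38 and Edem2 at -1.35. Of 8 other measured ER stress factors 5 were lower and 0 higher, and Creb3l1, a membrane-bound factor related to Atf6, had 143 UMIs in knockout and 1050 in wild type cells and a ratio of -2.61 (-2.87 to -2.35). Of 15 genes of the integrated stress response downstream of Eif2ak3, 3 were higher and 3 lower, near the shares of all genes, with a median of 0.02. Mthfd2, a mitochondrial folate enzyme, had 1.53 and the serine synthesis gene Psat1 0.91, while the cystine transporter Slc7a11 had -1.19. Of 12 cytosolic heat shock genes 2 were higher, Hspb1 at 1.54 and Hsp90ab1 at 0.60, again near the share of all genes, and 0 were lower. At 5 to 10% casein, where 14% of all genes were higher and 13.3% lower, the cytosolic heat shock median was 0.08, the integrated stress response median 0.66 with 8 of 12 measured genes higher, the COPII median 0.52 and the oligosaccharyltransferase median 0.86.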

How the data were processed

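The deposited matrices of the 2 libraries, 1 per genotype, hold raw UMI counts as whole numbers. The submitters' processing notes name GRCm38 (mm10) and Seurat 4.0.4, while neither an aligner nor a counting tool is named there; no barcode in the files had under 500 UMIs.

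Cells with at least 500 genes, 1000 UMIs and at most 20% mitochondrial UMIs were kept. Scrublet in scanpy 1.11.5 (expected rate 6%) called 122 wild type doublets and 0 in the knockout library, where its threshold of 0.621 did not work; 38 knockout cells (0.579%) scored above the wild type threshold of 0.379 and were kept. Leiden clustering (leidenalg 0.10.2, resolution 1) used 2000 variable genes without milk, mitochondrial, ribosomal protein and member genes and gave 17 clusters, named from fixed markers. Cells with 3 or more UMIs over 8 mitotic genes were counted as cycling. Raw counts were summed per class or casein range. Intervals are exact (Poisson, conditional binomial and Clopper-Pearson at 95%). The summing and ratio steps were checked on simulated data.

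The members and lists were chosen with earlier results of these data known. All 39 members were named, and up to 4 genes with the largest ratio per other list. Intervals say nothing of the spread between animals. Alternatives covered scaling, gene minimum, weights, thinning, filters, clustering, free RNA and casein ranges. Protein sequences were not used here.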

Additional observations from a re-analysis of the deposited data

Results flagged for a closer look

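Herpud1 was higher in luminal secretory cells of the knockout library (log2 ratio 0.94, from 1865 and 1173 UMIs) and lower in its hormone-sensing cells (log2 ratio -0.97, from 39 and 39 UMIs), so the 2 classes moved in opposite directions past 1.5-fold. Xbp1 was lower in luminal secretory cells (log2 ratio -1.37) and higher in non-epithelial cells (log2 ratio 0.59, from 107 and 129 UMIs). Neither difference between classes was tested, since each class has 1 library per genotype.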

How the results depend on the processing

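No paired analysis was possible because each genotype has 1 library. Among the recomputed group medians 144 stayed within their counting interval, 30 moved outside it and 1 past 1.5-fold changed sign. For a group this interval runs between the medians of its members' lower and upper interval ends. Among single members and shares of cells 2277 values stayed, 426 moved and 9 changed sign. In luminal secretory cells plain scaling gave medians of 1.26 for chaperones, -0.063 for the translocon group, 0.87 for degradation genes, 0.39 for sensors and 0.65 for all members, and turned the sign of P4hb (0.17), Dnajb9 (0.14), Sec61b (0.033), Spcs1 (0.18), Spcs2 (0.16), Sec11c (0.0036), Derl1 (0.23) and Atf6 (0.10). Scaling outside milk protein genes alone gave 0.71, -0.62, 0.32 and, for all members, 0.093. Chaperones had 0.28 with equal weight per cell and 0.30 without cycling cells. The translocon group had -0.88 both at a gene minimum of 200 and after thinning, and all members had -0.12 after thinning. Ranges set by the share of all milk proteins gave 1.36 for chaperones and 0.47 for the translocon group in the fourth range, and 0.45 and -0.027 in the fifth. Chaperones had 0.16 in the fifth range after thinning, and 0.62 at 15 to 25% casein with edges at 5, 15 and 25%, against -0.067 at 20 to 30%. Within the knockout library, the third over the lowest range, or the second with edges at 5, 15 and 25%, gave 1.54 for chaperones with milk protein ranges, 1.54 without cycling cells and 0.70 with the other edges, and 1.26 and 0.65 for the translocon group with milk protein ranges and the other edges. The fifth over the lowest range gave 0.71 for knockout chaperones with milk protein ranges, where a sixth range of 36 knockout cells gave 0.34, and -0.19 with plain CPM. The highest range with the other edges gave -0.63, and plain CPM gave 0.29 for the knockout translocon group. In the wild type library plain CPM gave 1.03 for the translocon group and turned chaperones to -0.062, both in the sixth over the lowest range. Among cells of 3000 to 12000 UMIs, chosen after seeing the data, Edem1 turned to -0.10 at 10 to 20% casein. The cause of these moves was not tested, beyond what a changed denominator or range sets by construction. Depth limits Ern1 and Eif2ak3, whose counts are low in every range, and the wild type ranges below 10% casein, which hold 67, 48 and 86 cells; Derl3 rests there on 1, 1 and 5 wild type UMIs. The knockout range at 20 to 30% casein holds 47 cells. No value here has a replicate library.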
